A study of Mus musculus with 6 samples.

Results

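The genes described here are 10 genes of the interleukin-1 (IL-1) family and of the NF-kB response: Il1a, Il1rn, Il18, Il33, Cxcl16, Nfkbia, Nfkbiz, Tnfaip3, Tlr2 and Icam1. They were chosen by name and matched by symbol to Ensembl identifiers, and all 10 were found among the 25006 genes of the count table. All 10 also passed the filter on low counts. The samples were sheets of corneal epithelium from mice, the stratified cell layer at the front of the eye, and the RNA sequenced was total RNA. A wild type group of 3 libraries was compared with 3 null-labelled libraries, whose label, EphA2 null, says that they lack the receptor tyrosine kinase EphA2. Neither the age or strain of the mice, nor how the null allele was made, is given in the sources used here. Each sample title holds a number. Wild type 1, wild type 2 and null-labelled 1 have lower numbers, and wild type 3, null-labelled 2 and null-labelled 3 have higher ones, a division called the title-number range here. What the number stands for is not stated, and samples that share one may come from 1 source, so p-values measure the spread between these libraries, which may be technical.

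Library totals ran from 15308013 to 27586942 counts. Epha2 did not show the labelled genotype, at 298, 253 and 563 CPM for wild type 1, 2 and 3 (CPM is a gene's count as a share of its library, scaled with TMM factors). Null-labelled 1, 2 and 3 held 285, 653 and 578 CPM. Directions between genotypes therefore rest on the label. Markers of corneal epithelium were abundant, all 11 of them detected with a summed level of 67660 to 92250 CPM. Principal component 1 held 62.0% of the variance. Between the 2 title-number ranges, edgeR called 44.7% of the 12847 tested genes at an adjusted p under 0.05. For this reason each gene is given across both factors.

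IL-1 family cytokines are made by epithelia and act as alarm signals when cells are damaged or meet microbes. IL-1 alpha binds the IL-1 receptor, which passes its signal through the adaptor MyD88 and IRAK kinases to the IKK complex, and IKK then frees the NF-kB transcription factors from their inhibitors. Several NF-kB targets, among them Nfkbia, Nfkbiz and Tnfaip3, feed back on the pathway, so their transcripts are often read as a gauge of its activity. In the cornea these signals call in leukocytes after injury and infection.

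The kB site is the DNA element that NF-kB dimers bind, and promoters were searched for its consensus because 3 of the genes are feedback targets. The consensus was taken as GGGRNNYYCC, with R for A or G, Y for C or T and N for any base. RefSeq start sites on GRCm38.p6 were found for 8 of the 10 genes (for Cxcl16 and Nfkbiz no entry was found). In the 250 bases before the start, the kB consensus was present for 3 of these 8 genes, Nfkbia, Tnfaip3 and Tlr2, read on both strands and counting a gene once if any of its starts had a match. It was present in 7.25% of all 32851 promoter windows of that length. That share is per window, while a gene here had 1 to 3 windows, so it is not a like-for-like comparison. The stretches that hold the matches are shown 5′ to 3′ on the strand of the gene, with the matched bases in capitals.
Nfkbia: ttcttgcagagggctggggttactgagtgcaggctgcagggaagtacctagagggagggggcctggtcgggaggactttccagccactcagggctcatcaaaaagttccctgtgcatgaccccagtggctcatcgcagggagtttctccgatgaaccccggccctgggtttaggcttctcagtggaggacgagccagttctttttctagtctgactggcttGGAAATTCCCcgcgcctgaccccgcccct
Tnfaip3, farther site: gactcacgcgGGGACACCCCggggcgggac
Tnfaip3, nearer site: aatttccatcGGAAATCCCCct
Tlr2: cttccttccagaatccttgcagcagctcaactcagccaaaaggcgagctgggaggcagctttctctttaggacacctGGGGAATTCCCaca

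The Nfkbia stretch lies at chr12:55492648-55492897 on the minus strand, and its match, GGGAATTTCC on the opposite strand, lies 29 to 20 bases before the start. The Tnfaip3 matches lie 125 to 116 and 12 to 3 bases before the first of 2 RefSeq starts, in chr10:19015516-19015545 and chr10:19015411-19015432 on the minus strand. GENCODE M21 starts this gene 247 bases farther upstream, so both are inside the annotated transcript there. For Tlr2, at chr3:83841768-83841858 on the minus strand, 2 overlapping matches span 173 to 163 bases before the RefSeq start. GENCODE M21 starts Tlr2 159 bases farther upstream, and the 91 bases shown are those outside its annotated gene, so the matches lie close to that start. These are matches of letters, not measured binding, and the windows of Il1a, Il1rn, Il18, Il33 and Icam1 did not hold the consensus. For Il18, Icam1 and the first Il33 start, the bases after the RefSeq start matched no GENCODE M21 transcript opening. The absence of a match is less certain there.

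To compare genes, levels were divided by the length of all annotated exons of a gene, merged over its isoforms. The order therefore depends on that annotation. Per kilobase of exon, Il18 had the highest level of the 10 genes. It encodes a cytokine stored as a precursor and released after caspase-1 cleavage, and its level was 75.7 CPM per kb on average, with a range of 60.5 to 89.2 over the 6 libraries. Nfkbia, Il1a and Nfkbiz came next with mean levels of 39.9, 35.0 and 28.4 CPM per kb. Their ranges overlapped from one to the next, and all 6 libraries of each lay below the lowest Il18 value. Cxcl16 (10.2), Il1rn (8.60), Il33 (5.78) and Tlr2 (4.13 CPM per kb) formed a lower tier, again with overlapping neighbours. Tnfaip3 was at 2.23 and Icam1 at 1.08 CPM per kb. Il18 was thus separate from Nfkbia, Nfkbiz from Cxcl16, and Tlr2 from Tnfaip3, while the order of the other neighbours was within their spread. Il33 varied most between libraries, 2.93-fold from the lowest to the highest, and Cxcl16 least, 1.29-fold.

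**Figure D1:**
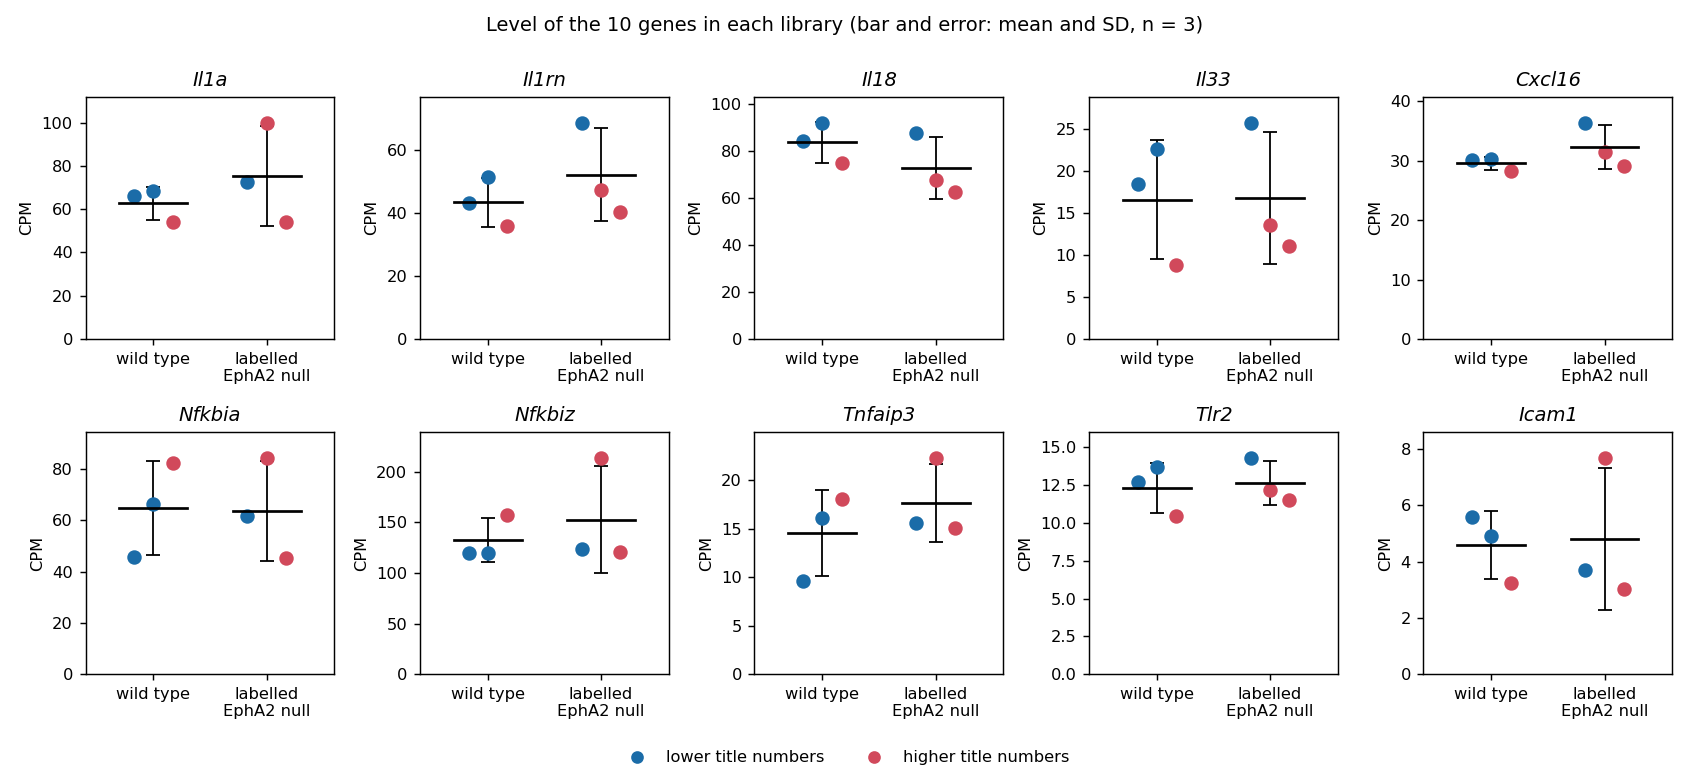
CPM (vertical axis, linear from 0) of each of the 10 genes in the 3 wild type libraries and the 3 null-labelled libraries; points are libraries, coloured by title-number range, and the bar and error show the mean and SD of each group. Genotype groups overlap in every panel, while Il18, Il33 and Tlr2 have all 3 libraries with higher title numbers below all 3 with lower ones.

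Between the genotypes, none of the 10 genes passed an adjusted p of 0.05. With edgeR's quasi-likelihood test 0 were called in either direction, against 0.00778% of all 12847 tested genes (1 gene). None had an unadjusted p under 0.05, which 1.18% of all genes had. DESeq2 (0.0467% of all genes) and limma voom also called 0. The log2 fold changes, null-labelled libraries over wild type, ran from -0.20 for Il18 to 0.28 for Tnfaip3, with a median of 0.09 beside 0.01 over all tested genes. No gene had groups that did not overlap, which 3.73% of all tested genes had.

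Il1a, the classical epithelial alarm cytokine (ENSMUSG00000027399, chromosome 2, 129299610 to 129309972 in GRCm38), had 66.0, 68.3 and 54.0 CPM in wild type 1, 2 and 3. Null-labelled 1, 2 and 3 had 72.3, 100.02 and 53.9 CPM. Null-labelled 2 was the highest of all 6, while null-labelled 3 and wild type 3 were level at the bottom. The group means were 62.8 ± 7.72 and 75.4 ± 23.2 CPM (SD, n = 3 each), which edgeR put at 0.26 ± 0.24 on the log2 scale (SE, adjusted p = 0.9996).

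Il1rn (ENSMUSG00000026981, chromosome 2, 24336853 to 24351494) encodes the antagonist that occupies the IL-1 receptor without signalling. Wild type 1, 2 and 3 had 42.9, 51.1 and 35.7 CPM. Null-labelled 1, 2 and 3 had 68.5, 47.3 and 40.1 CPM. The null-labelled level was higher within each title-number range, by 0.55 on the log2 scale in the lower, where null-labelled 1 is the only such library, and by 0.29 in the higher range. Without null-labelled 1, the highest of the 6, the genotype value went from 0.26 to 0.01. With the range as a term in the edgeR model, the log2 fold change was 0.42 ± 0.12 (SE), with an unadjusted p of 0.00702 and an adjusted p of 0.9996. That model called 0.00778% of all genes, and 0 of these 10.

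Il33 (ENSMUSG00000024810, chromosome 19, 29925114 to 29960718), a cytokine held in the nucleus of epithelial cells, showed a like pattern between genotypes. The group means were nearly equal, 16.6 ± 7.06 CPM in wild type and 16.8 ± 7.86 CPM in the null-labelled group (SD, n = 3 each; log2 fold change 0.01 ± 0.42 SE). Within the ranges the difference was 0.34 and 0.47 on the log2 scale, and with the range as a term it was 0.40 ± 0.14 (SE; unadjusted p = 0.0232, adjusted p = 0.9996, edgeR). Il1rn and Il33 were the only 2 of the 10 with an unadjusted p under 0.05 in that model, and neither passed the adjustment over all genes. The share of all genes with such a p was not counted for that model, so whether 2 of 10 is unusual is not known.

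For the other genes the genotype difference was smaller than, or close to, its error. Cxcl16, a membrane-bound chemokine that also acts as a scavenger receptor, had 0.13 ± 0.14 (SE, log2), and Tlr2, the receptor for bacterial lipoproteins, 0.04 ± 0.17. Nfkbia, the inhibitor IkB alpha, had -0.02 ± 0.29, Nfkbiz, the nuclear regulator IkB zeta, 0.20 ± 0.25, and Tnfaip3, the deubiquitinase A20, 0.28 ± 0.27. Icam1, an adhesion molecule for leukocytes, had 0.06 ± 0.40. Whether the genotype difference itself depended on the title-number range was tested with an interaction term, which called none of the 10 genes (adjusted p = 0.9991 for each, edgeR; 0% of all genes called and 4.71% with an unadjusted p under 0.05). Without null-labelled 3 that term passed for Icam1 (1.74 on the log2 scale, adjusted p = 0.0303), in a fit that called 1.47% of all genes. In that fit 3 of the 4 combinations of genotype and range hold 1 library each, so the spread comes from wild type 1 and 2 alone and the null-labelled value in the higher range from null-labelled 2 alone.

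**Figure D2:**
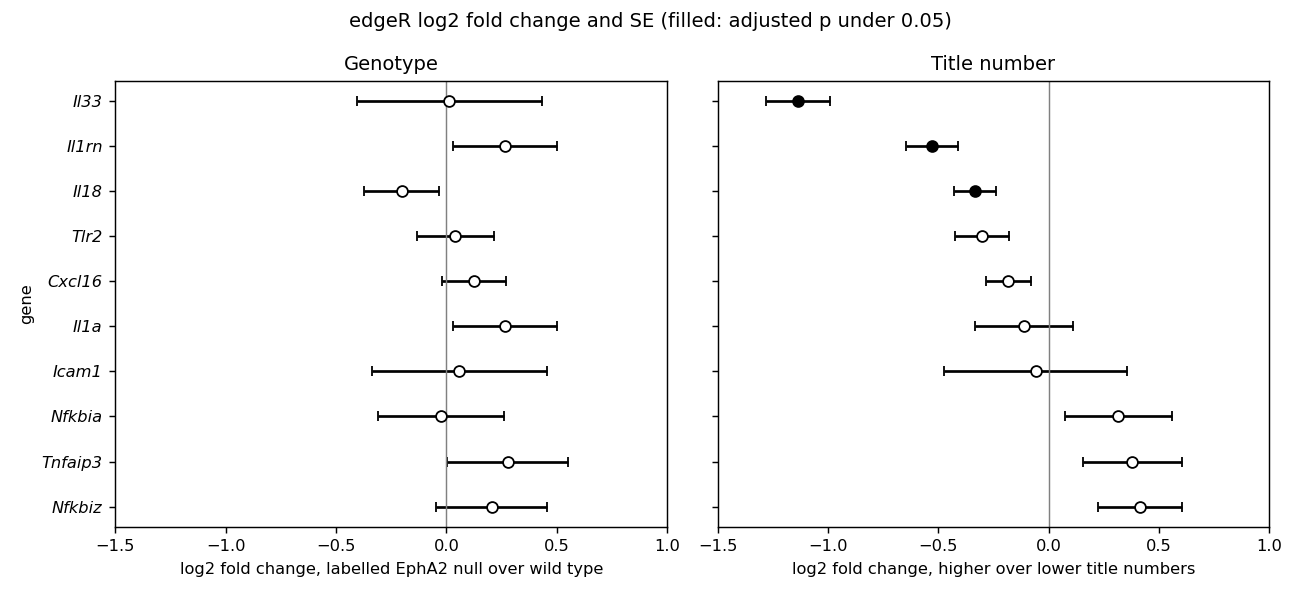
edgeR log2 fold changes with SE (horizontal axes) of the 10 genes (vertical axis) for genotype, left, and for title number with genotype as a term, right; filled points have an adjusted p under 0.05. All genotype points are open and within 0.28 of 0, and Il33, Il1rn and Il18 are filled and below 0 for title number.

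Between title-number ranges, 3 of the 10 genes changed and all 3 fell in the libraries with higher numbers: Il33, Il1rn and Il18, each an IL-1 family cytokine or antagonist. That is 30.0% of the 10, beside 44.7% of all 12847 tested genes, 20.1% lower and 24.6% higher, so the 10 genes changed no more often than genes at large. DESeq2 (42.6% of all genes) and limma voom (44.3%) each called 3 of the 10 as well. In these models genotype was a term, and every fold change below is the higher over the lower title numbers.

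Il33 showed the largest difference of the 10. It was at 18.4, 22.6 and 25.7 CPM in wild type 1, wild type 2 and null-labelled 1, and at 8.78, 13.6 and 11.02 CPM in wild type 3 and null-labelled 2 and 3. All 3 libraries of the higher range lay below all 3 of the lower, a separation in this direction that 28.8% of all tested genes had, while 30.1% were separated the other way (59.0% in all). It was shared by Il18 and Tlr2 among the 10 genes, and 0 of the 10 were separated upwards. The log2 fold change was -1.14 ± 0.14 (SE, adjusted p = 0.00188, edgeR), a level 2.20-fold lower. It was -1.20 within wild type and -1.06 within the null-labelled libraries, and the call held under every alternative run, with an adjusted p of 0.0311 at most.

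Il1rn fell by 0.53 ± 0.12 on the log2 scale (SE, adjusted p = 0.00931, edgeR), from a mean of 54.2 ± 13.1 to 41.0 ± 5.86 CPM (SD, n = 3 each). The ranges overlapped, since wild type 1 was below null-labelled 2. The call was lost without null-labelled 1, the highest of the 6 (adjusted p = 0.160), and when genotype was not a term (adjusted p = 0.0766). Il18 (ENSMUSG00000039217, chromosome 9, 50554827 to 50581840) was at 83.9, 91.9 and 87.7 CPM in the lower range and at 74.8, 67.7 and 62.4 CPM in the higher range. It fell by 0.33 ± 0.09 (SE, adjusted p = 0.0211, edgeR) with no overlap between the ranges. Without null-labelled 1 the adjusted p was 0.278, and without wild type 2 it was 0.0609.

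The receptor Tlr2 (ENSMUSG00000027995, chromosome 3, 83836272 to 83841767) lay in the same order without passing the test. Its levels were 12.7, 13.7 and 14.3 CPM in the lower and 10.5, 12.2 and 11.5 CPM in the higher range, or -0.30 ± 0.12 on the log2 scale (SE, adjusted p = 0.0739, edgeR). With library totals as the only scaling it passed (-0.42, adjusted p = 0.0268), as did Cxcl16 (-0.30, adjusted p = 0.0418). Under that scaling the calls over all 12847 genes shifted too, from 2586 to 3667 lower and from 3154 to 2449 higher. Cxcl16 (ENSMUSG00000018920, chromosome 11, 70453983 to 70459984) otherwise had -0.18 ± 0.10, with all 6 libraries between 28.3 and 36.4 CPM.

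The 3 feedback genes had log2 fold changes above 0, the opposite sign to the cytokines, and none passed. Nfkbia (ENSMUSG00000021025, chromosome 12, 55489410 to 55492647) was at 45.6, 66.2 and 61.5 CPM in the lower range and at 82.4, 84.2 and 45.3 CPM in the higher range. Its highest and its lowest value both came from null-labelled libraries that share a title number, and its log2 fold change was 0.32 ± 0.24 (SE, adjusted p = 0.314, edgeR). Nfkbiz (ENSMUSG00000035356, chromosome 16, 55811375 to 55838899) was at 120, 120 and 124 CPM in the lower range, nearly level, and at 158, 214 and 121 CPM in the higher. It had 0.41 ± 0.19 (adjusted p = 0.107). Tnfaip3 (ENSMUSG00000019850, chromosome 10, 19000910 to 19015657) was at 9.60, 16.1 and 15.5 CPM against 18.1, 22.3 and 15.1 CPM, with 0.38 ± 0.22 (adjusted p = 0.197).

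A single library weighed on these values. Without null-labelled 3, Nfkbia (0.51, adjusted p = 0.0252) and Nfkbiz (0.56, adjusted p = 0.00609) were called higher in edgeR. That fit called 3031 of 13066 genes higher. Nfkbiz was also called with no filter on low counts (adjusted p = 0.0175) and with samples of 1 title number summed (adjusted p = 0.0222). These runs called 3238 of 18389 and 3008 of 13323 genes higher, in that order. Without null-labelled 2, Il1a was called lower (-0.36, adjusted p = 0.0166), against -0.11 ± 0.22 (SE, adjusted p = 0.709) with all libraries. The fit without null-labelled 2 called 2582 of 12989 genes lower. Icam1 (ENSMUSG00000037405, chromosome 9, 21015985 to 21028817) was at 5.596, 4.89 and 3.72 CPM in the lower and 3.24, 7.67 and 3.02 CPM in the higher range, so its lowest and highest libraries both had higher numbers. Its log2 fold change was -0.06 ± 0.42 (SE, adjusted p = 0.920).

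The wider pathway was read from a list of genes by role, of which 135 besides the 10 were in the table and 104 were tested. Between genotypes 0 of the 104 were called by edgeR, DESeq2 or limma voom, and 1 of them reached an unadjusted edgeR p of 0.05. The 3 smallest p-values belonged to Nlrp6, an inflammasome sensor, with a log2 fold change of 1.09 ± 0.42 (SE), Ptgs2, the inducible cyclooxygenase, with 3.42 ± 1.46, and Tab3, a TAK1 adaptor, with 0.31 ± 0.14 (adjusted p = 0.9996 for each). The Ptgs2 value came from 1 library, null-labelled 2, at 14.1 CPM, while the other 5 lay between 0.224 and 0.642 CPM. Between title-number ranges 51 of the 104 were called, 25 higher and 26 lower (49.0%, beside 44.7% of all genes), with a median of 0.06 against -0.01 over all tested genes.

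By role, the counts were as follows, with no test of a difference between roles. Of the 9 tested IL-1 family ligands, Il1a, Il1rn, Il18 and Il33 included, 7 fell in the higher range and 0 rose (77.8%, beside 20.1% of all genes lower), with a median of -0.71. Il1f9, which encodes IL-36 gamma, went from a mean of 84.4 CPM in the lower to 49.0 CPM in the higher range (-0.94 ± 0.20, adjusted p = 0.00675, edgeR). Il1b, encoding IL-1 beta, went from 1.602 to 0.621 CPM (-1.58 ± 0.40, adjusted p = 0.0135). Of the 7 tested receptors and binding proteins, 4 fell and 0 rose. Il1r1, the signalling receptor for IL-1, went from 58.1 to 37.4 CPM (-0.63 ± 0.13, adjusted p = 0.00674), and Il1rap, its co-receptor, from 28.9 to 19.2 CPM (-0.63 ± 0.13, adjusted p = 0.00650). Il1r2, a decoy receptor, and Il1rl2, the IL-36 receptor, were the other two. These 6 names were chosen after their values were seen.

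Toll-like receptors and their partners fell in 4 and rose in 1 of 9 tested, beside 20.1% of all genes lower and 24.6% higher. Cd14, a co-receptor for bacterial lipopolysaccharide, went from 6.87 to 2.05 CPM (-1.81 ± 0.26, adjusted p = 0.00225), and Tlr3, a sensor of double-stranded RNA, from 55.8 to 41.0 CPM (-0.49 ± 0.09, adjusted p = 0.00425). Of 10 inflammasome and processing genes 4 fell and 2 rose, and among those that fell were the adaptor Pycard (-0.54), the caspase Casp4 (-1.51) and Nlrp10 (-1.73).

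Of 20 adaptors and kinases, with receptors for TNF counted here, 9 rose, 1 fell and 10 were not called, with a median of 0.18, beside 24.6% of all genes higher and 20.1% lower. Tnfrsf1a, the main TNF receptor, went from 94.5 to 186 CPM (0.98 ± 0.14, adjusted p = 0.00235), Traf3 from 20.9 to 36.1 CPM (0.84 ± 0.12), Tollip from 71.0 to 117 CPM (0.78 ± 0.11) and the kinase Irak1 from 48.8 to 75.0 CPM (0.66 ± 0.11). The 1 that fell was Tnfrsf1b, the second TNF receptor, at 1.09 and 0.187 CPM. Of 12 IKK and NF-kB subunit genes 5 rose, 1 fell and 6 were not called. Rela, encoding the p65 subunit, went from 32.2 to 60.0 CPM (0.96 ± 0.15, adjusted p = 0.00260) and Nfkb1, encoding p105 and p50, from 66.4 to 101.0 CPM (0.62 ± 0.10, adjusted p = 0.00299).

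Inhibitor and feedback genes were split, with 4 higher and 4 lower of 17 tested, the 3 members of this role being among the 9 that did not pass. N4bp1 rose by 0.62, while Tnip3, an A20-binding protein, had -1.66 ± 0.22 (adjusted p = 0.00204) and Birc3, a ubiquitin ligase, -0.53. Secreted targets had 2 higher and 2 lower of 11, with the membrane-bound chemokine Cx3cl1 rising from 30.0 to 51.7 CPM (0.86 ± 0.11, adjusted p = 0.00182). Among 19 cell-surface and intracellular targets, which include Icam1, 2 rose and 2 fell. Called in either direction were 47.1% of the inhibitor and feedback genes. The share was 36.4% for secreted targets and 21.1% for cell-surface and intracellular targets. Of all tested genes 44.7% were called, 24.6% higher and 20.1% lower. No score or set test was made on these groups, and called genes of both directions were common over the whole table.

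**Figure D3:**
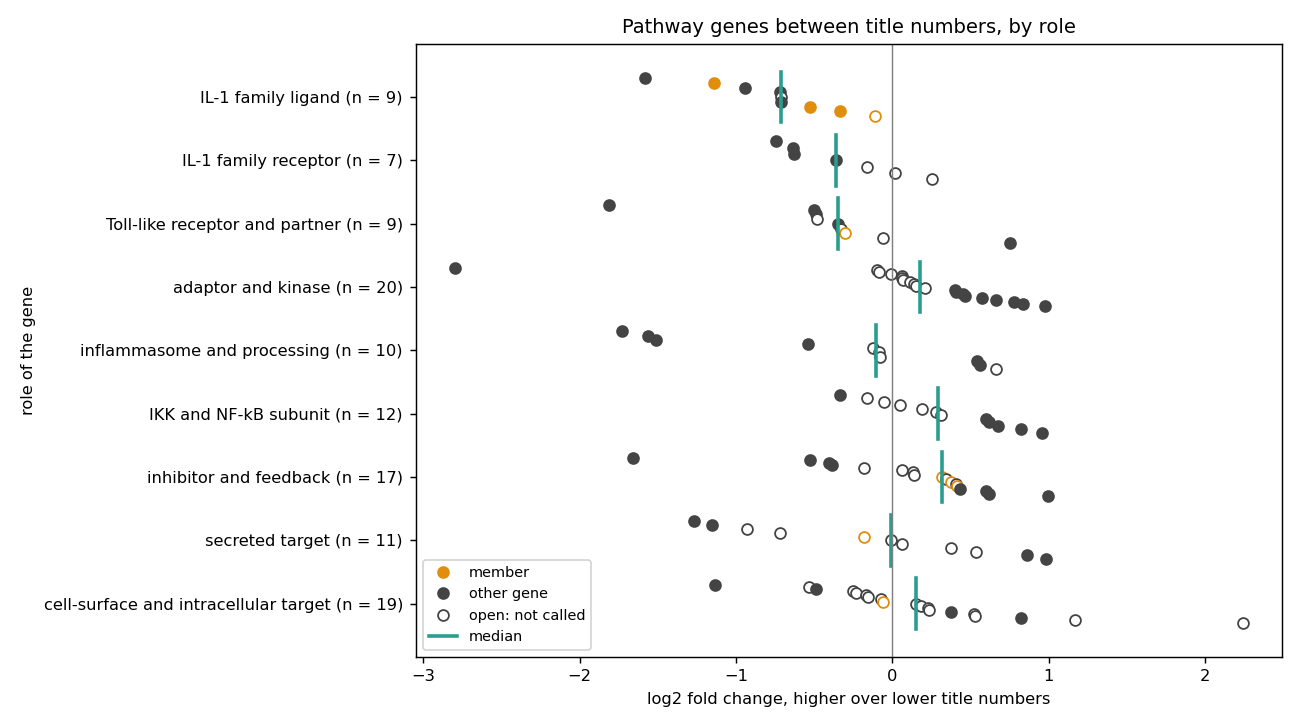
log2 fold change, higher over lower title numbers (horizontal axis), of the tested pathway genes by role (vertical axis); orange points are the 10 genes described here, filled points have an adjusted p under 0.05 in edgeR, and the green bar is the median of the role. All 9 IL-1 family ligands are below 0, while 16 of 20 adaptors and kinases and 9 of 12 IKK and NF-kB subunit genes are above 0.

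These counts leaned on single libraries. Without null-labelled 1, which leaves only wild type libraries in the lower range, the calls were 4 for ligands, 1 for IL-1 receptors, 2 for Toll-like receptors, 3 for adaptors and kinases and 1 for IKK and NF-kB subunits. Calls over all genes went from 5740 to 1103 in that fit. Without wild type 3 they were 3 for ligands, 1 for receptors and 3 for Toll-like receptors, with 3702 over all genes. Without wild type 2 adaptors and kinases had 6 calls (3549 over all genes).

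Marker lists moved with the title numbers too. Over all tested genes 24.6% were higher and 20.1% lower in the higher range. Of the 11 corneal epithelium markers 4 were higher and 0 lower. Their sums did not overlap, at 67660 to 75280 CPM in the lower and 82720 to 92250 CPM in the higher range. The largest parts of the sum came from Krt5, Aldh3a1 and Krt12 (means of 26975, 19155 and 14588 CPM). Krt14 (-0.29), Krt15 (-0.31) and Perp (-0.27) had log2 fold changes below 0 and were not called. Of the 14 tested leukocyte markers 10 were lower and 1 higher in the higher range, with a median of -1.97, and Ptprc, the pan-leukocyte gene, was at 1.40 to 1.93 CPM in the lower and 0.246 to 0.270 CPM in the higher range. The summed level of the 21 measured leukocyte markers was 326 to 370 CPM in the lower and 313 to 365 CPM in the higher range, most of it from Itgam (266 to 318 CPM), and none was at 0 in every library. Of 9 tested conjunctival markers 3 were lower and 0 higher, summing to 4924 to 6334 CPM in the lower and 3302 to 6037 CPM in the higher range. Muc5ac, the goblet cell mucin, was at 38.5, 5.24 and 58.8 CPM in the lower and at 0.675, 2.21 and 1.68 CPM in the higher range. Of the 10 vessel markers Emcn, Kdr and Lyve1 were at 0 in every library, and the sum was 3.47 to 3.94 CPM in the lower and 6.45 to 8.58 CPM in the higher range. The 9 stromal keratocyte markers summed to 1.16 to 3.07 CPM over the 6 libraries, with Kera and Lum at 0, and the 1 that was tested was lower in the higher range. The part of these cells in the changes above, which include genes that leukocytes also express such as Il1b and Cd14, was not tested. In bulk RNA, fewer cells of a type and less RNA per cell cannot be told apart.

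Libraries that share a title number and a label also differed from each other in these genes. Null-labelled 2 was above library 3 of that group for all 10 genes and for 66 of the 104 other pathway genes. Over all tested genes the median log2 difference was -0.03, and the share above 0 was not counted. Of the 10 genes 4 were more than 1.5-fold higher: Icam1 (2.47-fold), Nfkbia (1.85-fold), Il1a (1.85-fold) and Nfkbiz (1.77-fold). Tnfaip3 was just below, at 1.47-fold, and Il18, Cxcl16 and Tlr2 were closest, at less than 1.09-fold. Over all tested genes 5.74% were past 1.5-fold in this direction and 5.19% in the other, where 0 of the 10 genes were. Of the 104 other pathway genes 15 were (14.4%), among them Cxcl1, Tnf, Ier3, Gadd45b, Plaur and Ptgs2, named after their values were seen, and 3 were past it in the other direction. This is 1 library against 1, so the difference has no replicate check.

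Wild type 1 and 2, which also share a title number, were closer. Of the 10 genes 0 were more than 1.5-fold higher in wild type 1 (2.71% of all genes) and 1 was more than 1.5-fold lower (3.18%). This was Tnfaip3, at 0.601 of the level in wild type 2, and Nfkbia was next, at 0.690. The other 8 genes lay between 0.816 and 1.14 of the level in wild type 2.

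**Figure D4:**
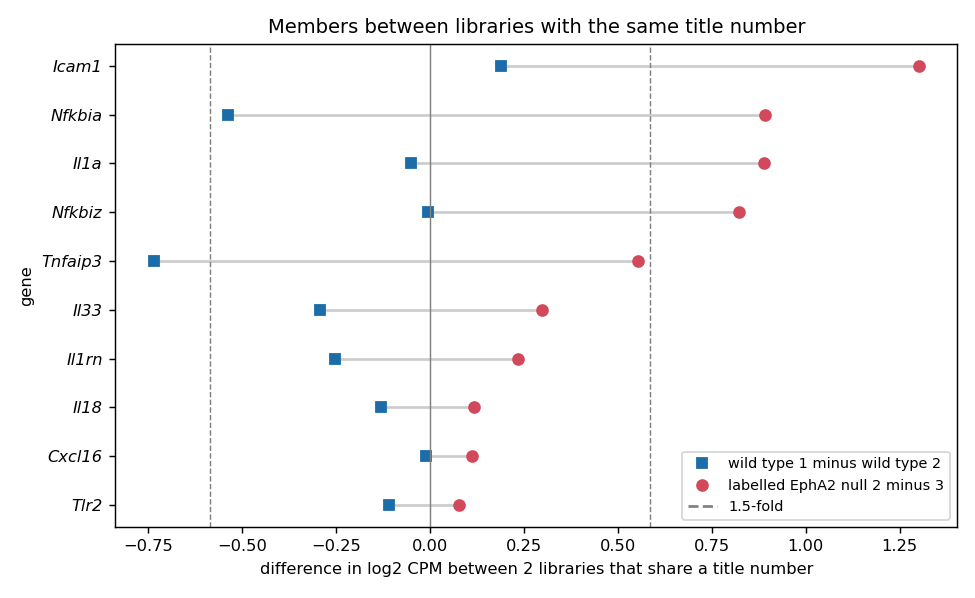
Difference in log2 CPM (horizontal axis) of the 10 genes (vertical axis) between 2 libraries that share a title number; squares are wild type 1 minus wild type 2, circles are null-labelled 2 minus 3, and dashed lines mark 1.5-fold. Icam1, Nfkbia, Il1a and Nfkbiz lie past the line in the labelled pair and only Tnfaip3 in the wild type pair.

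The antagonist was set against the agonist as the ratio of Il1rn to Il1a, each per kilobase of merged exons. These lengths were 5535 bases for Il1rn and 1974 for Il1a, so the size of the ratio depends on them. Without the length, mean levels were 47.6 CPM for Il1rn and 69.1 CPM for Il1a. Isoforms were not told apart. Wild type 1, 2 and 3 had ratios of 0.232, 0.267 and 0.236. Null-labelled 1, 2 and 3 had ratios of 0.338, 0.169 and 0.266. The lowest and the highest ratio were both in the labelled group, and the groups overlapped. The difference in log2 ratio was 0.02 between genotypes (exact permutation test, two-sided, p = 1.0) and -0.33 between title-number ranges (exact p = 0.4), in a design of 3 against 3 that cannot give a p under 0.1.

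Genes with the most similar pattern over the 6 libraries were sought among the 8840 genes whose mean level was 10 CPM or more, by Pearson's r of log2 CPM, as a description. Nearest to Il33 were Nqo1 (r = 0.998), Chmp2a (0.998) and Tmem258 (0.997). Among those nearest to Il1a were Ptp4a2 (r = 0.989) and Bscl2 (0.965). For Nfkbia they were Hnrnph1 (r = 0.979), Mttp (0.960) and Aldoa (0.947). Each r rests on 6 libraries, and 59.0% of all tested genes had title-number ranges that did not overlap in CPM. Il33 was one of these, while Il1a and Nfkbia were not.

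Some counts may include reads of neighbours, since the strand setting is not given in the sources used here. On the opposite strand, Il1a overlaps Gm14023, Il18 overlaps Tex12 and Bco2, Cxcl16 overlaps Zmynd15 and Icam1 overlaps Gm47079, so these values are less certain. Il1rn, Il33, Nfkbia, Nfkbiz, Tnfaip3 and Tlr2 overlap no annotated gene.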

How the data were processed

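Total RNA of 6 mouse corneal epithelial sheets was sequenced on an Illumina HiSeq, per the labels and series text. The values the authors deposited are raw counts, whole numbers per Ensembl gene; for aligner, counter, strand setting, build and annotation the entry is: not given in the sources used here. All 6 columns were matched to sample titles (0 columns of other samples). GENCODE M21 (GRCm38) named 24991 of 25006 genes and gave positions and exon lengths; it was not checked against the authors' annotation. No 2 libraries agreed within sampling noise (lowest chi-square over degrees of freedom 10.6).

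Counts were filtered with filterByExpr (12847 genes left), scaled with TMM and tested with edgeR 4.0.16 (glmQLFit, glmQLFTest; R 4.3.3), with genotype alone, or genotype and title-number range, with their interaction for the last test. Adjusted p is Benjamini-Hochberg over all tested genes, with calls under 0.05. The SE is the log2 fold change divided by the square root of F. Within-range and library-pair differences use log2 CPM with a prior count of 3. DESeq2 1.42.0, limma voom (limma 3.58.1), other scalings and filters, summed title numbers and each library left out were alternatives. On simulated counts the genotype model (12861 genes) found 2% of the simulated 1.5-fold changes, 26% of the 2-fold and 94% of the 4-fold ones; the title-number model (12871 genes) found 54%, 76% and 100%.

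The 10 genes, the lists and the title-number comparison were chosen with earlier results of these data known. Besides the 10 genes and Epha2, named pathway genes are the 3 with the smallest p between genotypes and up to 8 called per direction between title-number ranges; other names were chosen after their values were seen. Genes most like Il1a, Il33 and Nfkbia were named by Pearson's r, and 1 of them is not reported here. Promoters are RefSeq entries.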

Additional observations from a re-analysis of the deposited data

How the results depend on the processing

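Between genotypes, 0 of the 10 genes and 0 of the pathway genes were called in any alternative run. Their 150 alternative log2 fold changes kept their sign and side of the threshold in 137 cases. The other 13 changed sign. With library totals alone Il33 had -0.0287, Tlr2 -0.0075 and Icam1 -0.0116, and with limma voom Icam1 had -0.0635. With each library left out the genotype value ran from -0.44 to 0.30 for Il33, -0.28 to 0.17 for Nfkbia, -0.073 to 0.13 for Tlr2, -0.45 to 0.30 for Icam1 and -0.12 to 0.35 for Nfkbiz. It kept its sign for Il1rn (0.013 to 0.42), Il1a (0.0093 to 0.45) and Tnfaip3 (0.047 to 0.45). Between title-number ranges the 3 called genes became 5 with library totals alone and 1 to 5 with a library left out. Calls over all genes moved as well, from 5740 to 6116 with library totals alone and to 1103 to 5803 with a library left out. Il1a changed sign without genotype as a term (0.0093) and ran from -0.36 to 0.072 with a library left out, and Icam1 from -0.70 to 0.49. The 51 called pathway genes became 28 at an adjusted p of 0.01, where calls over all genes were not counted, and 18 to 55 with a library left out. The interaction called 0 to 1 of the 10 with a library left out, where it could be fitted; without wild type 3 or null-labelled 1 it could not. The interaction was not run on summed title numbers. The cause of these changes was not tested. No paired analysis was possible because the labels give no replicate numbers; titles also hold a letter, some shared between genotypes, whose meaning is not stated and which was not used. The title-number range was a term instead. Depth limits Icam1 most, with 566 counts in all. The DESeq2 model of both factors and the counts by role were chosen after seeing the data. Over all genes, genotype had 1 call, against 6 in DESeq2, 18 in DESeq2 with both factors and 0 with title numbers summed.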
